A study of Mus musculus with 20 samples.

Results

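C/EBPβ binding was examined at 42 mouse nuclear receptor genes, every listed member of the family other than Pparg and Nr3c1. The genes were taken by symbol, and all 42 were matched to a span on mm10. A merged ChIP-seq site belonged to a gene if its midpoint lay inside the gene's span or within 50 kb of it. By this rule 112 of the 23854 sites of the series were assigned, and 29 of the 42 genes had at least 1. The cells were 3T3-L1, an established mouse preadipocyte line that can be turned into fat cells. All carried a doxycycline-inducible transgene for the HA-tagged LAP form of C/EBPβ, a leucine zipper transcription factor switched on early during adipogenesis. The transgene was wild type (WT) or carried mutations (Mut) at the residues that receive poly(ADP-ribose). Cells held confluent under contact inhibition received vehicle (−Dox) or 1 µg/ml doxycycline for 8 h (+Dox), and 1 set of WT cells was given BYK204165 (BYK), an inhibitor of PARP enzymes, 1 h ahead of doxycycline. WT −Dox and Mut −Dox are also called uninduced WT and uninduced Mut, WT +Dox and Mut +Dox induced WT and induced Mut, and WT +Dox +BYK the inhibitor list. The 20 libraries form a ChIP group and an input group of 2 for each condition, but the peaks come as 1 list per condition. No value below therefore has a replicate error or a p-value, and the depth behind the lists is unknown. The antibody was against C/EBPβ, so a peak may hold the cell's own protein, the induced protein or both, and the lists hold no expression values with which the labelled cell type could be checked.

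Nuclear receptors are transcription factors, many of which are switched by small lipid-soluble ligands such as thyroid hormone, retinoids, vitamin D, oxysterols and steroids. A conserved domain with zinc fingers binds DNA, and a second domain holds the ligand and recruits coactivators or corepressors. Many members bind as partners of a retinoid X receptor, while steroid receptors bind as pairs of their own kind and some orphan receptors bind alone. In preadipocytes C/EBPβ and the glucocorticoid receptor Nr3c1 act upstream of Pparg, and retinoic acid receptors, LXRα, the REV-ERB proteins and COUP-TFII are among the other members studied in fat cell formation.

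Peaks at annotated starts were few, and sequences are shown for receptor genes whose promoter window in the RefSeq table was overlapped by a C/EBPβ peak. The RefSeq promoter table (GRCm38.p6, the coordinates of mm10), with windows of 300 bases from 250 before to 50 after each start, matched 40 of the 42 members and not Thra or Nr5a1. Peaks overlapped a window of Esrra, Nr1h3 and Nr3c2. Capitals mark matches to the C/EBP core TTGCNNAA, the AP-1 motif TGANTCA or the receptor hexamer AGGTCA on either strand. The minus-strand Esrra window chr19:6921759-6922058 lay under peaks of WT −Dox, Mut −Dox and Mut +Dox, that of Nr1h3, also on the minus strand (chr2:91195067-91195366), under peaks of the 3 +Dox lists, and that of Nr3c2 on the plus strand (chr8:76902080-76902379) under a WT +Dox peak.
Esrra: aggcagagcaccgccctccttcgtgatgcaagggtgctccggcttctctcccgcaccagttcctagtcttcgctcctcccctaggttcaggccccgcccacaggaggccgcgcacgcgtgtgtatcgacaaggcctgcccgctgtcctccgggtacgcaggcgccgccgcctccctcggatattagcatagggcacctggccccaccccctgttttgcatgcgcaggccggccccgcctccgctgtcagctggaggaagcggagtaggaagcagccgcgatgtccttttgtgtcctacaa
Nr1h3: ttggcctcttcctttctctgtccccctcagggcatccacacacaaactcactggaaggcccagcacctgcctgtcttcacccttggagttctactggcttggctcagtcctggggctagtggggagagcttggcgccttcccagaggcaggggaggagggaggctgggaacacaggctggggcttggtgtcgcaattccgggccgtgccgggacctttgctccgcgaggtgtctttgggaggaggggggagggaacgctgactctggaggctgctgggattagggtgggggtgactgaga
Nr3c2: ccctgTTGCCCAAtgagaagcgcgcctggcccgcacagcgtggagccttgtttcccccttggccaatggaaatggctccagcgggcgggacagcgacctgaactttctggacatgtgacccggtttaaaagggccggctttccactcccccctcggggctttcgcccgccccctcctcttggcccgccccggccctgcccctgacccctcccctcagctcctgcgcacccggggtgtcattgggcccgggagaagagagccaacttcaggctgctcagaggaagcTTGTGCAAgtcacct

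The Nr3c2 window held 2 C/EBP core matches, the first base of one 245 bases before the start and that of the other 35 bases after it. The Esrra and Nr1h3 windows held none of the 3 motifs. Over all 58 windows of the members, 11 (19.0%) held the C/EBP core, beside 10.8% of the 32851 windows in the table. They belong to Nr5a2, Rxrg, Esrrg, Nr6a1, Nr3c2, Esr1, Nr1d1, Nr2f1, Rarb, Rarg and Rorb. The palindromic form TTGCGCAA was in 0 of them and in 0.183% of all windows, the AP-1 motif in 5.17% and 7.81%, and the receptor hexamer in 17.2% and 16.3%. A direct repeat of the hexamer with 1 base between copies (DR1), whose matches also count for the hexamer, was in 0 of the members' windows and 0.0396% of all. These are letter matches in fixed windows, several windows of a gene can overlap, and the shares were not compared by a test.

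Receptor genes as a group carried C/EBPβ sites in each condition, and the number changed with the length of the peak list. Their sites numbered 64 in uninduced WT, 40 in uninduced Mut, 67 in induced WT, 85 in induced Mut and 89 with the inhibitor, from lists of 10959, 6898, 12384, 17816 and 18371 peaks. The order of these counts is that of the list lengths. Limited to the best-scoring 6898 peaks per list, the counts were 39, 40, 38, 35 and 40. Of the 42 members, 29 (69.0%, 95% Wilson interval 54.0 to 80.9) had a site in some list, where 61.0% of 21883 protein-coding genes did. Members had a median of 7.62 sites per Mb of span and flanks, and protein-coding genes 8.39. Wilson intervals here cover counting error only, and since neighbouring sites and genes are not independent, they are likely too narrow.

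**Figure D1:**
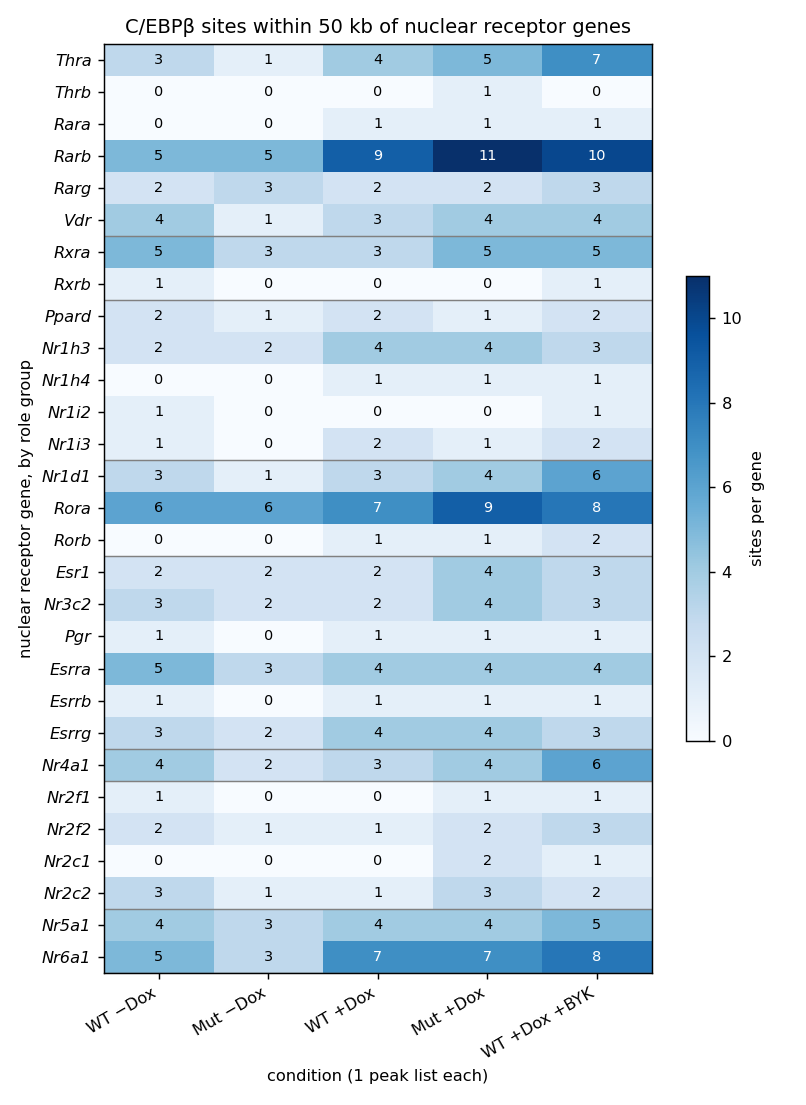
Each row is 1 of the 29 receptor genes with a site, grouped by role, each column is a condition with 1 peak list, and the number and shade give the sites within 50 kb. Rarb reaches 11 sites in Mut +Dox, and Rora has at least 6 in every list.

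The 13 members with no site within 50 kb in any list were Ppara, Nr1d2, Nr1h2, Rxrg, Nr2e1, Nr2e3, Nr2f6, Esr2, Nr4a2, Nr4a3, Nr5a2, Nr0b1 and Nr0b2. They include the retinal receptor Nr2e3, the neural receptor Nr2e1 and the liver receptors Nr5a2 and Nr0b2. Other receptors best known from other tissues did have sites, such as the bile acid receptor Nr1h4 (1), the xenobiotic receptor Nr1i3 (2) and steroidogenic factor 1, Nr5a1 (5). Whether lacking a site goes with the tissue of expression was not tested. Widening the window by 10 kb would give a site to Nr2f6, 52.4 kb away and present in all 5 lists, and to Nr4a2, 58.0 kb away. Just inside the limit lay a site 49.8 kb from Nr2f2, and just outside it one 50.3 kb from Rxra. Sites were unevenly spread over the bound members, 11 of which had 5 or more and together held 73 of the 112. Genes with long spans collect more sites, yet Thrb, with a span of 381 kb, had 1 site (2.08 per Mb) while its chromosome 14 neighbour Rarb, with 651 kb, had 13 (17.3 per Mb).

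Member sites had a median width of 943 bp (579 to 2045), and all sites one of 926 bp. Of the 112, 59 lay inside a member and 53 outside. For 76 (67.9%) a member was the nearest protein-coding gene, and the other sites lay closer to a different gene, which is named below where it applies. Within 1 kb of an annotated start of any protein-coding gene lay 10 sites (8.93%, interval 4.92 to 15.7), beside 7.02% of all sites. Only 4 lay that close to a start of the member itself in the promoter table, at Esrra, Nr1h3, Nr3c2 and Rara. Thra and Nr5a1 have no start there and could not be counted. Not counted either were sites with midpoints 0.023 kb upstream of the Nr1h3 span and 0.206 kb upstream of the Nr2c2 span, both of which covered the 5′ end of that span. Their nearest starts of the same gene in the promoter table lay more than 1 kb away.

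Receptors for thyroid hormone, retinoic acid and vitamin D were the role group with the most sites, 31 in all, of which 17 lay inside the genes. The group had 14 sites in uninduced WT, 10 in uninduced Mut, 19 in induced WT, 24 in induced Mut and 25 with the inhibitor. Rarb, which encodes retinoic acid receptor β, had the most of any member, with 5, 5, 9, 11 and 10 sites in the same order of conditions. All 13 of its merged sites were inside the span on chromosome 14 (16430839 to 17082331), and 8 of them lay between 471 and 649 kb from its 5′ end. The sites with a peak in all 5 lists numbered 5, each in that 3′ part of the span. The only Rarb start in the promoter table (16575476) also lay there. The common sites at 471 and 479 kb were upstream of that start, and those at 556, 569 and 649 kb downstream. Of the 5 common sites, the one that ranked first among Rarb sites within each Mut list was at 16602788 to 16603882. It had authors' scores of 155.57 in uninduced WT, 207.75 in uninduced Mut, 234.35 in induced WT, 713.78 in induced Mut and 349.13 with the inhibitor. Within its own list that is percentile 68.6, 78.7, 84.4, 98.0 and 89.3, where the percentile is the share of the list's peaks with a score no higher. Scores are described within a list and not compared between lists.

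The remaining 8 Rarb sites had no peak in either −Dox list. The sites at 397 kb (16684751 to 16685628) and 540 kb (16541490 to 16542796) were found in all 3 +Dox lists, with percentiles of 38.2 and 3.93 in induced WT, 50.5 and 41.2 in induced Mut and 48.1 and 36.9 with the inhibitor. Those at 201 kb and 618 kb were found in induced Mut and with the inhibitor, the one at 188 kb in both +Dox lists without it, and those at 20.8, 121 and 528 kb in 1 list each. The highest rank among these 8 was percentile 52.4, at 201 kb in induced Mut. Limited to the best-scoring 6898 peaks per list, Rarb had 5 sites in every condition.

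**Figure D2:**
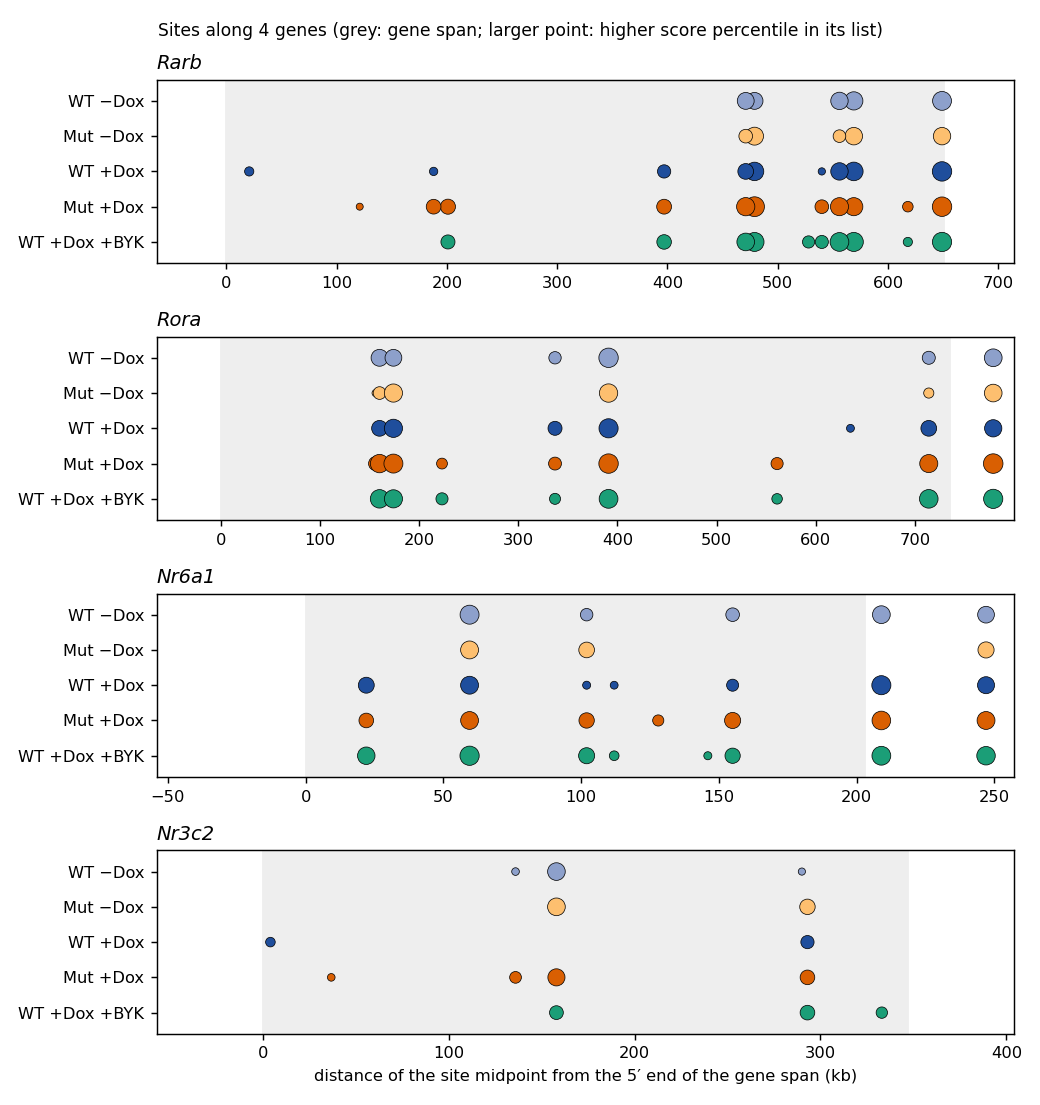
Each panel shows 1 gene with its span in grey, the x axis gives the distance of a site's midpoint from the 5′ end in kb, each row is a peak list, and a larger point has a higher score percentile in that list. In Rarb the 5 sites found in every list lie between 471 and 649 kb, and the +Dox lists add smaller points both in that stretch and elsewhere in the span.

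Thra, which encodes thyroid hormone receptor α, overlaps Nr1d1 at its end, so 6 of its 7 sites also count for Nr1d1. It had 3 sites in uninduced WT, 1 in uninduced Mut, 4 in induced WT, 5 in induced Mut and 7 with the inhibitor. The site shared by all lists (chromosome 11, 98783126 to 98784086) lay 14.6 kb from Thra and 8.23 kb upstream of Nr1d1, at percentiles from 50.5 in uninduced Mut to 83.8 in induced WT. None of the 7 lay inside Thra, and 5 had Med24, Msl1 or Casc3 as the nearest gene. The site at 98788534 to 98789371 was at percentile 2.29 in induced Mut and 2.63 with the inhibitor, the lists that held it.

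Vdr, the vitamin D receptor gene, had 4, 1, 3, 4 and 4 sites. Its strongest (chromosome 15, 97913754 to 97914940), 6.05 kb upstream, was in every list and scored 844.83 with the inhibitor (percentile 98.9). In the other lists it scored 254.63 (percentile 84.4) in uninduced WT, 259.79 in uninduced Mut, 543.38 (percentile 97.8) in induced WT and 513.33 in induced Mut. An intragenic site (97887113 to 97888206) had a peak in the 3 +Dox lists at percentiles 69.5, 55.6 and 78.5 and in neither −Dox list. The site 32.0 kb upstream, nearest Tmem106c, was in uninduced WT, induced Mut and the inhibitor list. Of 3 downstream sites nearest Hdac7, 2 were found in uninduced WT alone and the other in the 3 +Dox lists.

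The α and γ retinoic acid receptor genes differed in how steady their sites were. Rarg had 2, 3, 2, 2 and 3 sites, 2 of them in all lists. Its intragenic site (chromosome 15, 102243091 to 102244205) lay at percentile 91.5 or above in each list. Rara had a single site (chromosome 11, 98939808 to 98940661), 523 bases downstream of an annotated start, with no −Dox peak and percentiles of 19.8 in induced WT, 58.7 in induced Mut and 38.6 with the inhibitor. The Thrb site was in induced Mut alone at percentile 21.4.

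Retinoid X receptors, the common partners of the lipid, retinoid, thyroid hormone and vitamin D receptors, had 7 sites, 6 of them at Rxra. Rxra had 5 sites in uninduced WT, 3 in uninduced Mut, 3 in induced WT, and 5 in each of induced Mut and the inhibitor list. A site 8.6 kb upstream (chromosome 2, 27667379 to 27668315) and another 12.5 kb downstream (27775424 to 27776286) were in all lists, at percentiles between 11.9 and 72.8. The intragenic site at 27744594 to 27745332 was in uninduced WT, induced Mut and the inhibitor list at percentiles 17.6, 1.72 and 35.1, and the one 22.9 kb downstream was in the −Dox lists alone, at percentiles 1.42 and 21.6. All 4 Rxra sites that differed between lists were at percentile 35.1 or below. Rxrb had 1 site, 37.1 kb away and nearest Col11a2, in uninduced WT and with the inhibitor.

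Among receptors for lipids, bile acids and xenobiotics, Nr1h3, which encodes the oxysterol receptor LXRα, had the most sites. It had 2 in each −Dox list, 4 in each +Dox list without the inhibitor and 3 with it. The promoter site whose sequence is shown above (91194716 to 91195646) was absent from both −Dox lists, and lay at percentile 22.0 in induced WT, 47.2 in induced Mut and 37.1 with the inhibitor. The highest-scoring Nr1h3 site (91236602 to 91238225), 34.6 kb upstream and nearest Ddb2, was in all lists at percentiles 90.5, 83.5, 58.0, 86.5 and 93.7. A site at the far 5′ end of the span (91202331 to 91203374), nearest Acp2, was also in all lists, and one 47.6 kb upstream in the +Dox lists without the inhibitor.

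Ppard, which encodes the fatty acid receptor PPARδ, had 2, 1, 2, 1 and 2 sites. The one in every list lay 26.8 kb downstream, nearest Rpl10a (chromosome 17, 28327736 to 28328785), at percentile 80.2 or above, while both intragenic sites were at percentile 10.1 or below. Nr1i3, the xenobiotic receptor CAR, had a site 14.4 kb downstream and nearest Fcer1g (chromosome 1, 171232716 to 171233679) that was in every list but uninduced Mut, at percentiles of 80.4 to 92.3. Nr1h4, the bile acid receptor FXR, had 1 intragenic site in the 3 +Dox lists, at percentiles of 20.6, 23.7 and 37.9. Nr1i2, the xenobiotic receptor PXR, had 1 site in uninduced WT and the inhibitor list, and Ppara and Nr1h2, the genes of PPARα and LXRβ, had none.

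Clock-linked receptors repress (REV-ERB) or activate (ROR) genes of the circadian oscillator through shared elements. Rora had 6 sites in each −Dox list, 7 in induced WT, 9 in induced Mut and 8 with the inhibitor, and 5 of its 10 merged sites were in all lists. The highest-scoring one in uninduced WT (chromosome 9, 69043579 to 69044552), 391 kb into the gene, was at percentile 93.7 there and at 82.9, 91.2, 94.2 and 87.5 in the other lists. Sites that differed between lists were all at percentile 44.0 or below, such as those 223 and 561 kb into the gene, found in induced Mut and with the inhibitor. The Rora site nearest the 5′ end lay 156 kb from it.

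Nr1d1, the gene of REV-ERBα, had 3, 1, 3, 4 and 6 sites. Its intragenic site (chromosome 11, 98773472 to 98774440) was in each list but uninduced Mut, at percentiles 35.5 in uninduced WT, 51.5 in induced WT, 64.6 in induced Mut and 41.0 with the inhibitor. Rorb had 1 site in induced WT and induced Mut and 2 with the inhibitor, none of them in the −Dox lists. Nr1d2, the gene of REV-ERBβ, had none.

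Steroid and estrogen-related receptors had 23 sites, 14 of them inside the genes. Nr3c2, the mineralocorticoid receptor gene, had 7 merged sites, all inside the span and none in all 5 lists. It had 3, 2, 2, 4 and 3 sites. The site 158 kb into the gene (chromosome 8, 77055634 to 77056942) was at percentile 75.7 in uninduced WT, 76.3 in uninduced Mut, 70.8 in induced Mut and 42.1 with the inhibitor, and had no peak in induced WT. The promoter site shown above was in induced WT alone, at percentile 14.8. The site 293 kb into the gene (77190080 to 77191092) was in every list but uninduced WT, which had a peak of low rank at 290 kb (77187581 to 77188288, percentile 3.57).

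Esr1, which encodes estrogen receptor α, had 2 sites in all lists, the stronger (chromosome 10, 4774937 to 4776981) at percentile 77.0 or above. Induced Mut added sites 7.07 and 5.63 kb upstream, at percentiles 21.8 and 3.23, and the inhibitor list held the first of these at 52.7. Esrra, which encodes the estrogen-related receptor ERRα, a regulator of mitochondrial genes, had 5, 3, 4, 4 and 4 sites. The Esrra promoter site (chromosome 19, 6921567 to 6922498) was at percentile 55.2 in uninduced WT, 34.0 in uninduced Mut and 47.8 in induced Mut. The 2 Esrra sites found in all lists lay outside the gene, nearest Prdx5 and Bad. Esrrg had 3, 2, 4, 4 and 3 sites, of which 2 were in all lists. The one 510 kb into the gene was at percentiles from 45.1 to 89.2, and the one 6.56 kb downstream at 64.1 to 83.5. Esrrb and Pgr, the progesterone receptor gene, had 1 site each, in every list but uninduced Mut.

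Of the NR4A receptors, immediate early genes whose products act without a known hormone, Nr4a1 had 6 sites and the other members none. It had 4, 2, 3, 4 and 6 sites, all outside the gene. The highest-scoring was 34.1 kb downstream and nearest Smim41 (chromosome 15, 101308191 to 101309647), in all lists at percentiles 85.9, 41.7, 89.6, 95.2 and 92.1. The site 7.33 kb upstream (101245736 to 101247416) was in each list but uninduced Mut, and lay at percentile 59.0 in uninduced WT, 21.3 in induced WT, 7.87 in induced Mut and 75.9 with the inhibitor. The inhibitor list alone held the neighbouring site 9.81 kb upstream, at percentile 52.7, and one 8.58 kb downstream, at 10.9.

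The COUP-TF and testicular receptor genes, whose products mostly act as repressors, had 10 sites, with 6 in uninduced WT, 2 in each of uninduced Mut and induced WT, 8 in induced Mut and 7 with the inhibitor. Nr2f2, which encodes COUP-TFII, had 2, 1, 1, 2 and 3 sites. Its intragenic site (chromosome 7, 70364554 to 70366002) was at percentile 32.0 in uninduced WT, 61.2 in induced Mut and 66.9 with the inhibitor and had no peak in the other lists. The only site of Nr2f1, the gene of COUP-TFI, 4.67 kb upstream (chromosome 13, 78202850 to 78204242), was found in those same 3 lists, at percentiles 16.4, 53.0 and 28.9. Nr2c2 had 3, 1, 1, 3 and 2 sites, of which the one in all lists (chromosome 6, 92145589 to 92146537) was inside the gene. Nr2c1 had sites in induced Mut and the inhibitor list alone, both nearest Fgd6.

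In the last group Nr6a1, which encodes the orphan receptor GCNF, had 5, 3, 7, 7 and 8 sites, and its neighbour Nr5a1, the gene of steroidogenic factor 1, had 4, 3, 4, 4 and 5, with 2 sites counted for both. The shared site between the genes (chromosome 2, 38717186 to 38718165) was at percentile 77.0 in uninduced WT, 90.6 in induced WT, 86.1 in induced Mut and 87.9 with the inhibitor, and absent from uninduced Mut. A site 59.5 kb into Nr6a1 (38866440 to 38867448) was in all lists at percentiles of 77.4 to 92.4. A site 22.0 kb into the gene (38904058 to 38904961) was in the 3 +Dox lists alone, at percentiles 59.9, 48.8 and 74.3. Of the 5 Nr5a1 sites, 3 were nearest the proteasome gene Psmb7.

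Comparing WT cells without and with doxycycline asks how binding at these genes changed on induction, and the answer was even: 10 of the 29 genes had more sites (34.5%, interval 19.9 to 52.7) and 10 had fewer (34.5%, the same interval). Over the 13352 protein-coding genes with any site, 30.1% had more and 18.5% fewer. Those with more were Thra, Rara, Rarb, Rora, Rorb, Nr1h3, Nr1h4, Nr1i3, Esrrg and Nr6a1. Those with fewer were Vdr, Nr1i2, Rxra, Rxrb, Nr2c2, Nr2f1, Nr2f2, Esrra, Nr3c2 and Nr4a1. Of the 64 uninduced WT sites, 46 (71.9%, 59.9 to 81.4) were also in induced WT, 18 were not, and 21 sites were in induced WT only. Across the series 74.5% of uninduced WT sites were kept. At equal list length 5 of the 29 genes had more sites and 5 fewer (17.2% each), beside 16.0% and 16.6% of the same 13352 genes. Genes left without a site at that length, such as Nr2f1, still count among the 29 here and in the comparisons below.

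In mutant cells the same comparison gave more sites at 25 of the 29 genes (86.2%, 69.4 to 94.5) and fewer at 1, Rarg (3.45%), where 63.5% and 2.7% of all bound genes had more and fewer. Rarb had 5 sites before and 11 after, Nr6a1 3 and 7, Thra 1 and 5, and Vdr 1 and 4. Of the 40 uninduced Mut sites 38 (95%, 83.5 to 98.6) were kept and 2 were not, and 47 sites were gained. Uninduced Mut is the shortest list, and with lists of equal length the change was from 40 sites to 35. At that length 5 of the 29 genes had more sites (17.2%) and 7 fewer (24.1%), beside 14.0% and 20.5% of all bound genes, so the tally of genes turned. A gene with more merged sites has more chances to differ between lists, and the bound members had a median of 4 against 2 for all bound genes, so the shares are set side by side without a test.

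The lines went in opposite directions at 8 of the 29 genes (27.6%, 14.7 to 45.7), which had fewer sites with doxycycline in WT and more in Mut, as did 11.3% of all bound genes. They were Vdr, Rxra, Nr2c2, Nr2f1, Nr2f2, Esrra, Nr3c2 and Nr4a1. Rxra went from 5 to 3 sites in WT and from 3 to 5 in Mut, and Nr2c2 from 3 to 1 and from 1 to 3. With lists of equal length none of the 8 kept opposite directions, though Nr2f1 then had no site left in any list.

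**Figure D3:**
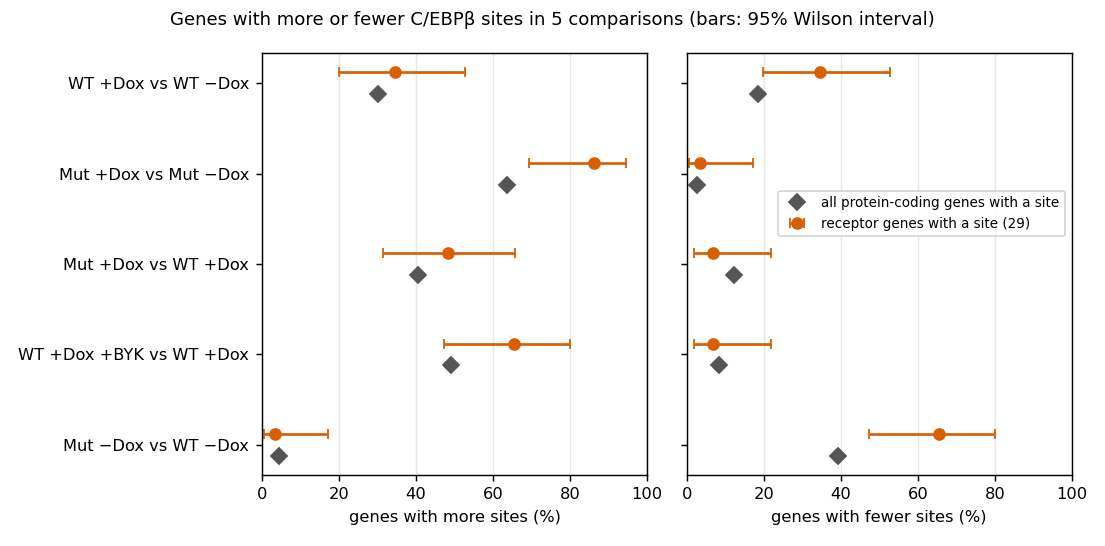
The x axes give the percentage of genes with more (left) or fewer (right) sites in the first condition of each comparison, orange points are the 29 bound receptor genes with 95% Wilson intervals, and grey diamonds are all bound protein-coding genes. In Mut +Dox against Mut −Dox the receptor genes stand at 86.2% with more sites and all bound genes at 63.5%.

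After induction, the mutant was set against WT to ask whether sites differ when the modified residues of the induced protein are mutated. Of the 29 genes 14 had more sites in induced Mut (48.3%, 31.4 to 65.6) and 2 had fewer (6.90%, 1.91 to 22.0), beside 40.6% and 12.2% of all bound genes. Rarb had 9 sites in induced WT and 11 in induced Mut, Rora 7 and 9, Rxra 3 and 5, Esr1 2 and 4, Nr3c2 2 and 4, Nr2c2 1 and 3, and Nr2c1 0 and 2. The genes with fewer were Ppard and Nr1i3, with 2 and 1 each. Of the 67 induced WT sites, 59 (88.1%, 78.2 to 93.8) had an induced Mut peak, 8 did not, and 26 sites were in induced Mut only. With lists of equal length the counts were 38 and 35, and 3 genes had more sites (10.3%) and 6 fewer (20.7%), so both directions turned. Of all bound genes 10.3% then had more and 16.9% fewer.

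The inhibitor comparison asks whether sites of the induced WT line differ when PARP enzymes are inhibited, and uses the same induced WT list as its control. With BYK204165, 19 genes had more sites (65.5%, 47.3 to 80.1) and 2 had fewer, Nr1h3 and Esrrg, beside 49.1% and 8.28% of all bound genes. Thra had 4 sites in induced WT and 7 with the inhibitor, Nr1d1 3 and 6, Nr4a1 3 and 6, Nr2f2 1 and 3 and Rxra 3 and 5. The 3 sites gained at Thra and at Nr1d1 are the same, nearest Msl1 or Casc3, so these genes are not separate examples, though both count among the 19. Of the 67 induced WT sites 59 (88.1%) had a peak with the inhibitor, 8 did not, and 30 sites were in the inhibitor list only. With lists of equal length the counts were 38 and 40, and 6 genes had more sites and 6 fewer (20.7% each), beside 12.5% and 14.0% of all bound genes.

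Uninduced cells of both lines differed as their list lengths did, with 64 sites in WT and 40 in Mut. Uninduced Mut had more sites at 1 gene, Rarg, and fewer at 19 (65.5%, 47.3 to 80.1), beside 4.48% and 39.4% of all bound genes. Vdr had 4 sites in uninduced WT and 1 in uninduced Mut, and Thra and Nr1d1 3 and 1 each, while Rarb (5) and Rora (6) had equal numbers. The Thra and Nr1d1 sites are the same ones, counted for both genes. Of the uninduced WT sites 37 (57.8%, 45.6 to 69.1) had an uninduced Mut peak. With lists of equal length the counts were 39 and 40, and 4 genes had more sites (13.8%) and 5 fewer (17.2%), beside 14.2% and 14.6% of all bound genes.

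Taken by the lists a site appeared in, the receptor genes' sites were most often shared by all conditions: 34 of 112 (30.4%, 22.6 to 39.4) had a peak in all 5 lists, beside 21.8% of all sites. A peak in 1 list only was held by 25 (22.3%, 15.6 to 30.9), beside 30.7% of all sites. Of the 34 common sites 16 lay inside a member and 18 outside. The 3 +Dox lists, with neither −Dox list, shared 11 sites (9.82%, and 10.1% of all sites), and induced Mut with the inhibitor list alone shared 9 (8.04%, and 10.1% of all). Uninduced WT, induced Mut and the inhibitor list, with neither of the others, shared 6 (5.36%, and 2.79% of all), at Vdr, Rxra, Nr4a1, Nr2c2, Nr2f1 and Nr2f2.

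Common sites had higher median ranks than sites of a single list, with single exceptions such as the common Nr6a1 site at percentile 7.05 in induced WT. In the common class the median percentile was 74.4 in uninduced WT, 60.3 in uninduced Mut, 73.0 in induced WT, 83.6 in induced Mut and 85.6 with the inhibitor. All 34 scored at least 100 in the inhibitor list. Sites found in 1 list had median percentiles of 16.4 in uninduced WT, 9.99 in induced WT, 10.2 in induced Mut and 25.3 with the inhibitor, and none was found in uninduced Mut alone. Over all sites of the series the corresponding medians were 74.7, 60.5, 74.5, 82.4 and 82.8 for common sites, and 16.4, 12.7, 17.9 and 17.8 for sites of 1 list in those 4 lists.

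**Figure D4:**
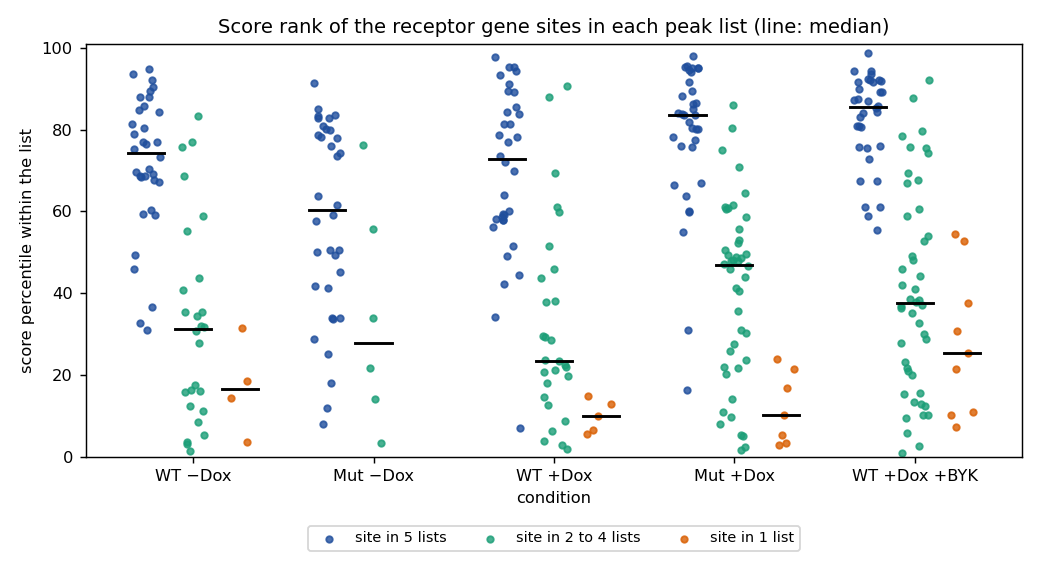
Each point is a receptor gene site, placed by condition on the x axis and by the percentile of its score within that condition's list on the y axis, with colour for the number of lists that hold it and a line at the median. Common sites have medians between 60.3 and 85.6, and sites of 1 list medians between 9.99 and 25.3.

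Genes that work with the receptors carried sites as well. Of 20 coregulator genes 19 had a site, as did 61.0% of all protein-coding genes. There were 66 sites in all, with 30 in uninduced WT, 13 in uninduced Mut, 25 in induced WT, 45 in induced Mut and 49 with the inhibitor. The coactivator genes Ppargc1a and Kat2b had 9 and 7 merged sites and the corepressor subunit gene Tbl1xr1 had 5. On WT induction 4 of the 19 had more sites (21.1%) and 8 fewer (42.1%), beside 30.1% and 18.5% of all bound genes, and with lists of equal length 2 had more and 4 fewer. On Mut induction 15 had more (78.9%) and 0 fewer, beside 63.5% and 2.7%, and with lists of equal length 2 had more and 2 fewer. Of 19 genes for ligand synthesis, carriage and breakdown 15 had a site (78.9%, beside the same 61.0%). The oxysterol enzyme gene Ch25h had 7 merged sites, and the retinoid genes Aldh1a1 and Dhrs3 5 each. In induced WT 1 of the 15 had more sites than in uninduced WT and 4 had fewer (6.67% and 26.7%, beside 30.1% and 18.5% of all bound genes). In induced Mut 9 had more than in uninduced Mut and 0 fewer, a share of 60.0% with more that lay near the 63.5% of all bound genes. At equal list length 1 and 3 ligand genes had more and fewer sites in WT, and 3 and 4 in Mut.

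All 11 of the receptor target genes examined had a site, where 61.0% of all protein-coding genes did, and they had 43 sites in all. Abca1, the cholesterol exporter gene regulated by LXR, had 8 merged sites, Pdk4, a regulator of pyruvate use, 7, and the clock gene Arntl 5, as had Per2. The median number of merged sites per gene was 3 for coregulators, 2 for ligand genes, 4 for target genes and 1.5 for the 42 receptors, beside 1 for all protein-coding genes. Pparg and Nr3c1, counted for comparison, had 20 and 6 merged sites, so Rarb, at 13, lay below Pparg and above Nr3c1. None of these counts is scaled by span length. Per Mb of span and flanks the 42 receptors had a median of 7.62 sites and all protein-coding genes 8.39.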

How the data were processed

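Input and C/EBPβ ChIP libraries came from 5 conditions in 10 groups of 2. Bowtie, bedtools and build mm10 were used, per the submitters' processing notes, and peak names in the deposited lists begin with MACS. The caller's version, threshold, use of input and pooling of replicates were not given in the sources used. Every list gives the authors' score per peak on an unnamed scale with a minimum near 50, used only to rank or filter peaks within a list.

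Peaks overlapping by at least 1 bp were merged, and sites were assigned by midpoint within 50 kb of gene spans (GRCm38.p6). Assigning single peaks by midpoint gave the same gene and site pairs. Assignment was checked on planted peaks. There is 1 list per condition, so no test was run. Members and gene lists were chosen with earlier results of these data known. Sites were described for members with at least 5 merged sites, a difference of at least 2 sites in a comparison, or a site within 1 kb of an own start, and the 3 genes with most sites of each other list were named (with ties). The software was pandas 2.3.3 with numpy 2.4.6 in Python 3.11.15, matplotlib 3.10.9 and scipy 1.17.1.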

Additional observations from a re-analysis of the deposited data

Results flagged for a closer look

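At 8 receptor genes the WT line had fewer sites with doxycycline than without and the mutant line had more. The difference between the lines was not tested, since each change rests on 1 list per condition. The change in Mut exceeded that in WT by 4 sites at Vdr, Rxra and Nr2c2, by 3 at Nr3c2 and Nr4a1, and by 2 at Nr2f1, Nr2f2 and Esrra. The list of uninduced mutant cells was the shortest, at 6898 peaks. With lists of equal length the WT and Mut changes were 0 and 0 at Vdr, Nr2f1 and Nr2f2, 0 and -2 at Rxra, 0 and -1 at Nr2c2, -1 and -1 at Esrra and Nr3c2, and -1 and 0 at Nr4a1. Nr2f1 had no site left in any list at that length, so its changes could not be other than 0. The part of list length in the pattern was not tested further.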

How the results depend on the processing

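No paired analysis was possible because the peak lists carry no replicate number. For the same reason no replicate could be left out. Requiring an overlap of 50% of the shorter peak left every count and difference unchanged. For the other settings, counts and differences of the whole group are given where they changed by more than 1.5 times. The member sites numbered 64 in uninduced WT, 40 in uninduced Mut, 67 in induced WT, 85 in induced Mut and 89 with the inhibitor. Peaks scoring at least 100 left 36, 24, 35, 54 and 52, and inside gene spans there were 31, 20, 36, 48 and 44. Lists of equal length gave 39 in uninduced WT, 38 in induced WT, 35 in induced Mut and 40 with the inhibitor. Within 10 kb there were 42 in uninduced WT and 58 with the inhibitor, and with nearest genes 58 with the inhibitor.

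The WT induction difference of 3 sites became -1 with the score minimum and with lists of equal length, and 5 inside spans. At equal length, which removes the lower-scoring peaks of the longer lists, the difference turned from 45 to -5 for Mut induction, from 18 to -3 for Mut against WT with doxycycline and from -24 to 1 for the uninduced lines, and went from 22 to 2 for the inhibitor. The inhibitor difference was 12 within 10 kb, 13 with nearest genes and 8 inside spans. The uninduced difference was -12 with the score minimum, -15 within 10 kb and with nearest genes, and -11 inside spans, and that of Mut induction 28 inside spans.

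For single genes, the score minimum turned the sign at Nr1h3 (WT induction, -1), Rxra (WT induction, 1) and Nr2c2 (Mut against WT with doxycycline, -1). Equal length turned it for the inhibitor at Thra, Nr1d1 and Rxra (-1 each), for Mut induction at Rora, Nr1h3, Nr2c2 and Nr3c2 (-1 each) and Rxra (-2), for Mut against WT with doxycycline at Rxra and Nr2c2 (-1 each), for WT induction at Nr1h3 (-1) and for the uninduced lines at Rxra (1). The 10 kb, span and nearest-gene settings turned no sign at a named gene, but they brought several differences to 0. Each of them did so for the inhibitor at Thra and Nr1d1 (from 3) and for the uninduced lines at Vdr (from -3). The same held at Nr2c1 for Mut induction and for Mut against WT with doxycycline (from 2). By the limit used above for the whole group, 17 gene differences changed within 10 kb, 24 inside spans and 18 with nearest genes. Those that did not numbered 22, 15 and 21. With the score minimum 24 gene differences changed by that limit, another 3 turned in sign and 12 did neither. At equal length these numbers were 26, 12 and 1.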
